A study of Rattus norvegicus with 7 samples.

Results

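The cAMP, calcium and protein kinase signalling genes of the rat brain were followed in 2 lines of rats bred in opposite directions for alcohol drinking. Of 43 listed genes, 28 had a probe on the array that could be matched to a RefSeq transcript of the gene, and these are 28 of the 6046 genes that could be named in this way. Where a gene had several probes the brightest over the 7 arrays stood for it, and 7 genes had a second probe. The other 15 genes had no matched probe and are not analysed here: Gnal, Adcy1, Adcy6, Adcy7, Adcy9, Prkaca, Prkacb, Prkar1b, Prkar2a, Prkar2b, Prkca, Prkcd, Prkce, Camk4 and Pde1b. All 28 measured genes passed the filter on dim probes, and 24 of them lay above background on all 7 arrays. Of the others, Pde1c and Pde7b had a dim spot. Camk2g and Pde4b had a spot flagged as an outlier, which was counted as not above background.

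RNA came from the whole brain of adult male Wistar rats of the alcohol-preferring line (P, 4 rats) and the alcohol non-preferring line (NP, 3 rats), each kept with a cage mate. Both lines come from selective breeding and had had no alcohol. Each rat had its own 1-colour oligonucleotide array with biotin-labelled RNA, and values are log2 normalized signal. As a model, each group is a single bred line, so any allele fixed in a line differs with it, and a whole brain averages over all regions. In such bulk tissue, fewer cells of a type and less RNA per cell cannot be told apart.

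Receptors coupled to stimulatory or inhibitory G proteins raise or lower the activity of adenylyl cyclases, which make cAMP from ATP. The messenger frees the catalytic subunits of protein kinase A from their regulatory subunits, and phosphodiesterases break it down. Calcium acts alongside it through protein kinase C, through calmodulin-dependent kinases and through the phosphatase calcineurin. Both branches reach CREB-family transcription factors in the nucleus, and in brain they are best known from synaptic plasticity and from responses to drugs and alcohol.

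CREB-family proteins bind the cyclic AMP response element, TGACGTCA, and more loosely its TGACG core. RefSeq promoter windows of build GRCr8 (250 bases before to 50 after a start) were found for 34 of the 43 genes, 49 windows in all. On either strand the full element was present in 3 of the 49 windows, or 6.12%, and in 1.83% of all 33469 windows. These 3 windows belong to Crem and Gnao1. The core, which each full element also holds once per strand, was present in 17 of 49 windows, or 34.7%, and in 21.2% of all windows. A match of letters is a description and not a site of binding. The windows of Camk2b, Ppp3cb and Gng7 are printed because these 3 genes carried the calls between the lines given further on. The window of Crem is printed because none of the 49 holds more full elements. Capitals mark the core on either strand, so that a full element reads as 8 capitals. The windows lie at chr14:85147895-85148194 on the minus strand for Camk2b, chr15:3809012-3809311 on the plus strand for Ppp3cb, chr7:9365139-9365438 on the plus strand for Gng7 and chr17:58985240-58985539 on the plus strand for Crem, which has 3 windows.
Camk2b: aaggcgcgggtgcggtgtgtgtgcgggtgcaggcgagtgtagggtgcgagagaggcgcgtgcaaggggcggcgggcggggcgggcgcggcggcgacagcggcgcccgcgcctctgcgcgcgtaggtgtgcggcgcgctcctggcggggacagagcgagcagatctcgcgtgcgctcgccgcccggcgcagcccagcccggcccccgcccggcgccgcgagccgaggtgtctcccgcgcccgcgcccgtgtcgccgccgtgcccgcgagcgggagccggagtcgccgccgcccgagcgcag
Ppp3cb: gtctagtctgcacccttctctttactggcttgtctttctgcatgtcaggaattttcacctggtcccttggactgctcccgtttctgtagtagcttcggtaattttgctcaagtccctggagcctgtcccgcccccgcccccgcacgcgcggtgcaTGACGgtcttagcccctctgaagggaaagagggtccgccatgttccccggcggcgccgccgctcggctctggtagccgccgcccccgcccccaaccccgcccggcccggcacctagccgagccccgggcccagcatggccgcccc
Gng7: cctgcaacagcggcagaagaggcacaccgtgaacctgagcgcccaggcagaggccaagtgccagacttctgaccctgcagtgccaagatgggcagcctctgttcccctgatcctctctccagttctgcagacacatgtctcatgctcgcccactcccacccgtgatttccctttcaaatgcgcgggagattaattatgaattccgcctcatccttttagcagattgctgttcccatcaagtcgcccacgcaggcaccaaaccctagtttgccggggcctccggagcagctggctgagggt
Crem: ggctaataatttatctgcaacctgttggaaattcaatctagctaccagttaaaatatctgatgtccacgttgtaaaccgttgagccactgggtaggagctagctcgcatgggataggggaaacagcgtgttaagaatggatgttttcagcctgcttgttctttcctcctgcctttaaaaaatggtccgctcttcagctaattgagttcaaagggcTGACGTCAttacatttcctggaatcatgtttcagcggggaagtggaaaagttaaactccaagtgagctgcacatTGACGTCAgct
The Camk2b window, with 81.3% G and C, and the Gng7 window, with 58%, hold no core. The Ppp3cb window holds 1 core and the Crem window 2 full elements.

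The number of arrays limits the precision, and between 77.9% and 85.9% of the 33849 transcript probes lay above background on an array. The array files carry a date in their header, and the sources used here do not say whether it is that of the scan or of another step. P 1, P 2, NP 2 and NP 3 carry date 1, NP 4 carries date 2, and P 3 and P 4 carry date 3. Only date 1 holds both lines. Of 58 tested marker genes of brain cell types and regions none was called between the lines by limma over all 7 arrays. With the header date as a block 3 of the 58 were called, where 5.72% of all probes were, and all 3 were lower in P. They were Aif1 of microglia (-1.23, adjusted p = 0.0155), Slc6a4 of serotonin neurons (-1.05, adjusted p = 0.0207) and Calb1, listed for cerebellum (-0.73, adjusted p = 0.0416). Their whole lists had median differences with the block of 0.03 for microglia, 0.08 for hypothalamus and brainstem and -0.26 for cerebellum. Within date 1 there were 6, where 6.40% of all probes were called. These were the same 3 and, higher in P, Zic1 of the cerebellum list (0.56), Adora2a (0.62) and Slc22a6 (0.57). Their part in the results of the signalling genes in these fits was not tested. All 7 astrocyte markers and all 7 striatal markers were above background on every array, as were 6 of 7 measured oligodendrocyte markers. The remaining oligodendrocyte marker, Mog, had flagged spots in P 3 and P 4. For neurons 2 of 4 measured markers were, the others having dim or flagged spots.

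The comparison of P with NP asks which transcripts differ in the brains of rats that never drank alcohol. None of the 28 genes differed between the lines over all 7 arrays (limma, Benjamini-Hochberg adjusted p under 0.05 over 29003 probes), where 0.290% of all probes did, so a count of 0 is close to what the table as a whole shows. At an unadjusted p under 0.05 there were 3 of the 28, Camk2b, Camk2g and Ppp3cb, and 11.5% of all probes. The P minus NP difference was above 0 for 14 genes and below 0 for 14, with a median of 0.02 on the log2 scale beside 0.01 for all probes. P and NP values did not overlap for 1 of the 26 genes with 7 values, Camk2b, or 3.85%, where groups did not overlap for 13.3% of all probes. With the header date as a block, 3 genes were called, Camk2b and Gng7 higher and Ppp3cb lower in P, where 5.72% of all probes were called. Within date 1 alone the count was 2, Camk2b and Ppp3cb, where 6.40% of all probes were. Because only date 1 holds both lines, the line term of the blocked fit rests on the same 4 arrays. With the block, leaving out P 1 kept the call of Ppp3cb alone, and all probes called went from 1655 to 908. Leaving out P 2, NP 2 or NP 3 gave 0 calls among the genes, and 72, 183 and 105 over all probes. Within date 1 such a fit sets 1 rat against 2, the lone rat being assumed to vary like the others. Without P 2 it called none of the genes and 249 probes. Without P 1 it called Gnai1 and Ppp3cb (2289 probes), without NP 2 Gng7, Pde4a and Ppp3cb (1866 probes), and without NP 3 Fyn, Gnai1 and Ppp3cb (935 probes). With median scaling the blocked fit called Ppp3cb alone and 618 probes, and in the authors' log2 values none of the genes and 47 probes.

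**Figure D1:**
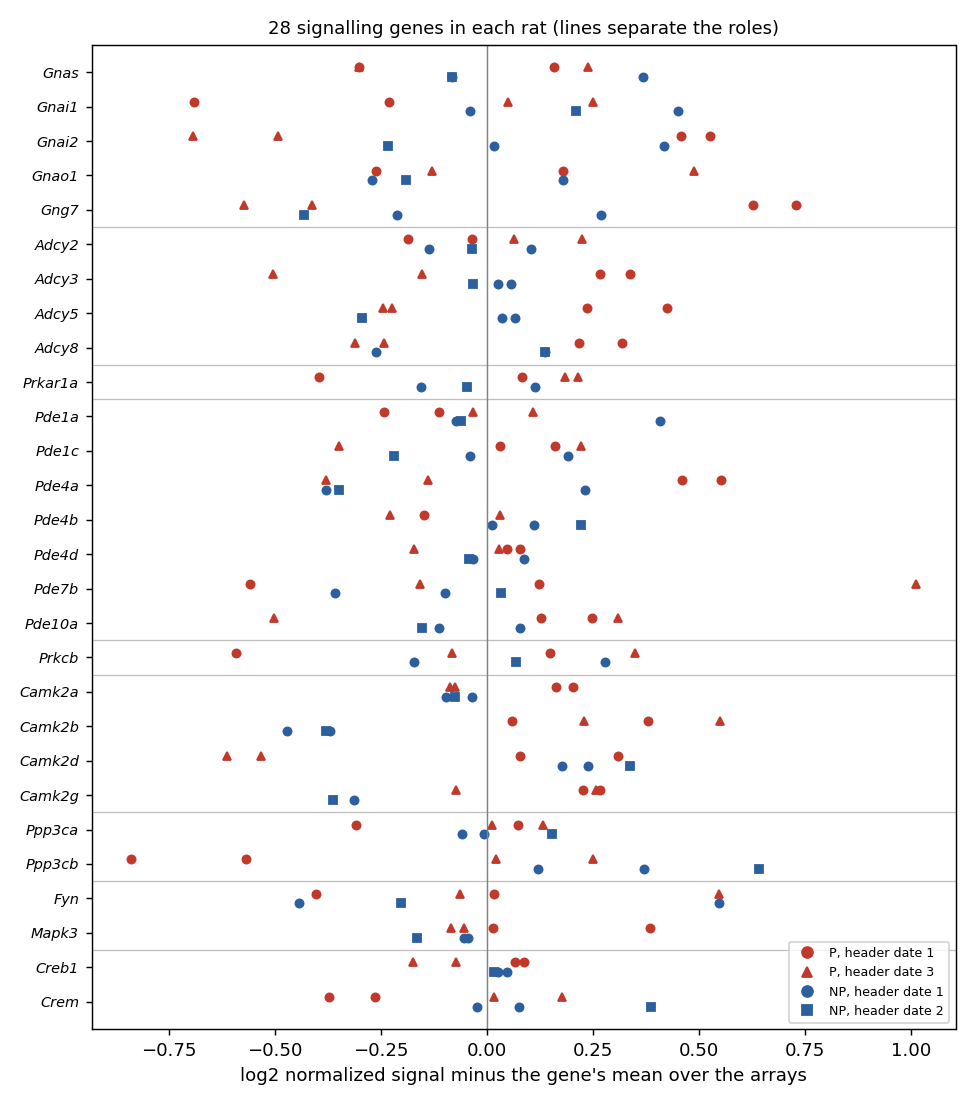
Log2 normalized signal of 28 signalling genes in 7 rats, each value minus the mean of its gene over the arrays; colour marks the line, the symbol marks the header date, and grey lines separate the roles. Camk2b and Camk2g are the genes whose P values all lie above their NP values, and for Gng7, Gnai2, Camk2d and Ppp3cb the P rats of date 1 (circles) and of date 3 (triangles) lie apart.

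**Figure D2:**
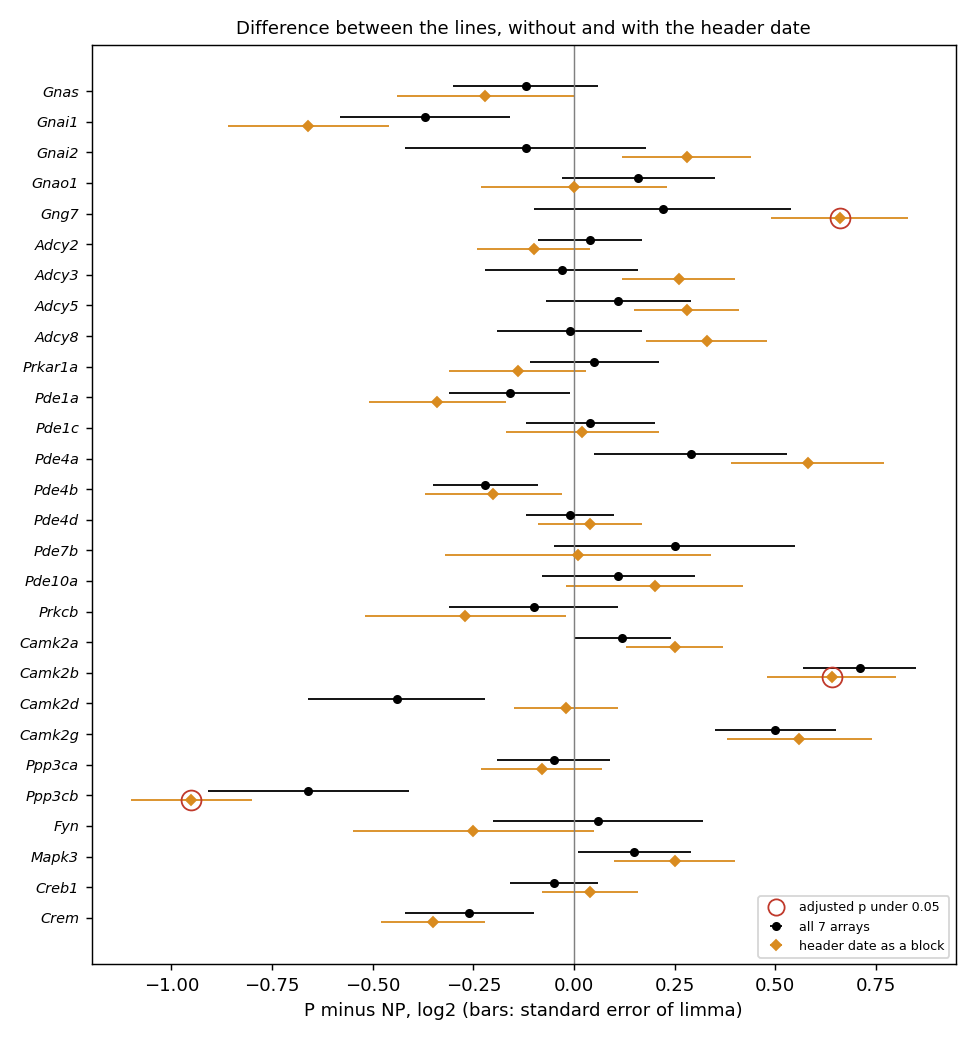
P minus NP difference of the 28 genes on the log2 scale with the standard error of limma, over all 7 arrays (black circles) and with the header date as a block (orange diamonds); red rings mark an adjusted p under 0.05. No black circle is ringed, and the rings lie on Gng7 (0.66), Camk2b (0.64) and Ppp3cb (-0.95) with the block.

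Among the G protein subunits, 5 of 6 were measured, and none was called over all 7 arrays (differences from -0.37 to 0.22). Gng7 encodes a gamma subunit that in striatal neurons joins the olfactory-type stimulatory alpha subunit to receptors. Its probe GE1296404 read 10.04, 9.94, 8.74 and 8.90 in P 1 to P 4, and 9.58, 9.10 and 8.88 in NP 2 to NP 4. P 1 and P 2 lay above every NP rat, whereas P 3 lay below all of them and P 4 within their range. Over all 7 arrays the difference was 0.22 ± 0.32 (SE, adjusted p = 0.795). With the block it was 0.66 ± 0.17 (adjusted p = 0.0493), within date 1 it was 0.66 ± 0.17 (adjusted p = 0.0512), and without P 1 and P 2 it turned to -0.36 (adjusted p = 0.375). The fit without P 1 and P 2 was added after seeing the data. In it the P arrays carry date 3 and the NP arrays dates 1 and 2, so line and date cannot be told apart. The same holds for each value below without P 1 and P 2. The 7 striatal markers, Drd1, Drd2, Ppp1r1b, Adora2a, Penk, Rgs9 and Gpr6, had a median P minus NP difference of 0.34 with the block and of 0.12 over all arrays, with no member called in either. Drd1 and Penk were lower in P in both fits (-0.30 and -0.20 with the block). Within date 1, Adora2a, a receptor of striatal projection neurons, was called higher in P (0.62 ± 0.13, adjusted p = 0.0316). The mean log2 value of the 7 markers ranged from 8.76 to 9.16 in P rats and from 8.85 to 8.93 in NP rats. P 1 and P 2 exceeded P 3 and P 4 by a median of 0.37 over the 7 markers, with Drd1 the other way (-0.36). The part of these markers in the values of Gng7 was not tested.

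Gnai1, an inhibitory alpha subunit, read 9.40, 8.94, 9.68 and 9.88 in P 1 to P 4 and 10.08, 9.59 and 9.84 in NP 2 to NP 4 with probe GE20207. The groups overlapped, and P 1 and P 2 were the lowest. The difference was -0.37 ± 0.21 over all arrays (adjusted p = 0.51), and blocking the date gave -0.66 ± 0.20 (adjusted p = 0.076). It was -0.19 without P 2, -0.25 without NP 2 and -0.06 without P 1 and P 2 (adjusted p = 0.717, 0.736 and 0.875). Leaving out P 4, NP 3 or P 3 gave -0.50, -0.49 and -0.43 (limma adjusted p = 0.451, 0.571 and 0.349). The fit without P 3 and P 4, also added after seeing the data, gave -0.67 for Gnai1 (limma adjusted p = 0.0372). Its second probe, GE21759, gave -0.24 ± 0.13 (adjusted p = 0.467), and -0.36 once the date was blocked (adjusted p = 0.126). On that probe the P rats (7.80 to 8.21) did not overlap the NP rats (8.22 to 8.30), though P 4 and NP 3 were 8.21 and 8.22. Gnai2, a related inhibitory subunit, read 11.65 and 11.72 in P 1 and P 2 but 10.50 and 10.70 in P 3 and P 4, with NP rats between at 11.61, 11.21 and 10.96. So the lowest and the highest values were both of P rats, and the lines differed by -0.12 ± 0.30. Gnas, the stimulatory alpha subunit, ranged from 10.57 to 11.11 in P and from 10.79 to 11.24 in NP (difference -0.12 ± 0.18). Gnao1, the alpha subunit most abundant in neurons, differed by 0.16 ± 0.19, and its second probe GE21758 by -0.07 ± 0.22.

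For the adenylyl cyclases 4 of 8 were measured, with differences between the lines from -0.03 to 0.11 over all arrays and none called in any of the 3 fits. Adcy5, the main cyclase of striatal neurons, read 10.23, 10.42, 9.75 and 9.77 in P 1 to P 4 and 10.03, 10.06 and 9.70 in NP 2 to NP 4. Adcy3, known from olfactory cilia and primary cilia of neurons, read 10.57, 10.64, 9.80 and 10.15 in P and only 10.27 to 10.36 in NP. Adcy8, which is stimulated by calcium and calmodulin, read 8.33, 8.23, 7.70 and 7.77 in P against 8.15, 7.75 and 8.15 in NP. In these 3 genes both P rats of date 1 lay above both P rats of date 3, by 0.56 for Adcy5, 0.63 for Adcy3 and 0.54 for Adcy8 on average, and the NP values lay mostly between them. Adcy2, a cyclase that G protein beta-gamma subunits activate, had a difference between the lines of 0.04 ± 0.13, and P 1 and P 2 lay 0.26 below P 3 and P 4 on average.

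Only Prkar1a of the 6 protein kinase A subunits was measured. This regulatory subunit read 7.22 to 7.83 in P and 7.46 to 7.73 in NP, and the difference of 0.05 ± 0.16 was smaller than its error (adjusted p = 0.917). Of the 4 protein kinase C isoforms Prkcb, a calcium-dependent form, was measured, at 8.72 to 9.66 in P and 9.14 to 9.59 in NP (difference -0.10 ± 0.21). Its NP range lay inside its P range.

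Phosphodiesterases were represented by 7 of 8 genes, and differences ranged from -0.22 for Pde4b to 0.29 for Pde4a with none called by the brightest probe. Pde4a and Pde4b are cAMP-specific enzymes of the group inhibited by rolipram. The brighter Pde4a probe, GE21783, read 9.63, 9.54, 8.94 and 8.70 in P 1 to P 4 and 9.31, 8.70 and 8.73 in NP 2 to NP 4. Both P rats of date 1 lay above all NP rats, and the difference was 0.29 ± 0.24 over all arrays and 0.58 ± 0.19 with the block (adjusted p = 0.096). Its second probe, GE20175, read 9.57, 9.55, 8.67 and 8.86 in P and 8.93, 8.60 and 7.73 in NP. That probe gave 0.74 ± 0.30 over all arrays (adjusted p = 0.403) and was called with the block (0.79, adjusted p = 0.0241). Both probes thus had the same sign and the same order of P rats by header date, with NP 4 much lower on the second probe only.

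Pde10a, the dual cAMP and cGMP enzyme of striatal projection neurons, read 10.70, 10.82, 10.88 and 10.07 in P 1 to P 4 and 10.46, 10.65 and 10.42 in NP. P 4 was the lowest of all 7 rats, and it was so on the second probe too, at 8.62 where the other rats ranged from 9.33 to 9.78. The lines differed by 0.11 ± 0.19 and -0.06 ± 0.24 on the 2 probes. Pde7b, a cAMP-specific enzyme, ran the other way in that rat, at 7.71 in P 4 against 6.14 to 6.82 in all the others, on a probe that was above background in 3 of 4 P rats. Pde1a, one of the calmodulin-activated enzymes, differed by -0.16 ± 0.15, and Pde1c, of the same group and near background, by 0.04 ± 0.16. Pde4b differed by -0.22 ± 0.13 over 3 P and 3 NP values, and Pde4d, at 6.73 to 6.99 in every rat, by -0.01 ± 0.11. That Pde4d signal was dim, although above background in every rat.

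The calmodulin-dependent kinases held the smallest unadjusted p of the set. Camk2b, the beta subunit of CaM kinase II that binds actin and helps to place the holoenzyme at synapses, read 7.61, 7.29, 7.46 and 7.78 in P 1 to P 4 with probe GE20786. In NP 2 to NP 4 it read 6.76, 6.86 and 6.85. Every P rat lay above every NP rat, whatever the header date. The difference was 0.71 ± 0.14 over all 7 arrays, which is 1.64-fold, with an adjusted p of 0.0912 that misses the threshold. It was 0.64 ± 0.16 with the block (adjusted p = 0.0467) and 0.64 ± 0.15 within date 1 (adjusted p = 0.0389). P 1 and P 2 lay 0.17 below P 3 and P 4 on average, and they still lay above both NP rats of that date. Leaving out P 2 gave 0.79 (adjusted p = 0.0416), and leaving out any other array gave 0.63 to 0.74 with adjusted p from 0.094 to 0.363. The authors' log2 values gave 1.10 (adjusted p = 0.179). On the same scale, but before arrays were normalized to each other, the median of the negative controls was 6.19 to 6.33 per array. The NP signal of Camk2b was thus dim, although above background in all 3 rats.

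Camk2g, the gamma subunit, read 9.19, 9.23, 9.22 and 8.89 in P 1 to P 4 and 8.65 and 8.60 in NP 2 and NP 4 with probe GE1173229. The spot of NP 3 carried an outlier flag and was left out of the fit. The 4 P values lay above both NP values, with a difference of 0.50 ± 0.15 (adjusted p = 0.305) and 0.56 ± 0.18 when the date was blocked (adjusted p = 0.102). With NP 3 missing, the blocked difference sets P 1 and P 2 against the single rat NP 2. Camk2d, the delta subunit, read 7.57 and 7.80 in P 1 and P 2, 6.88 and 6.96 in P 3 and P 4, and 7.73, 7.67 and 7.83 in NP 2 to NP 4. Here P 3 and P 4 lay below all other rats, and P 1 and P 2 lay near the NP rats. The difference was accordingly -0.44 ± 0.22 over all arrays (adjusted p = 0.45), -0.02 ± 0.13 with the block (adjusted p = 0.953), and -0.83 without P 1 and P 2 (adjusted p = 0.0188). Camk2a, the alpha subunit of forebrain excitatory neurons, read 8.42, 8.38, 8.13 and 8.14 in P and 8.12 to 8.18 in NP (difference 0.12 ± 0.12). The 4 subunit genes therefore did not share a direction over all arrays, with 3 differences above 0 and 1 below 0.

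**Figure D3:**
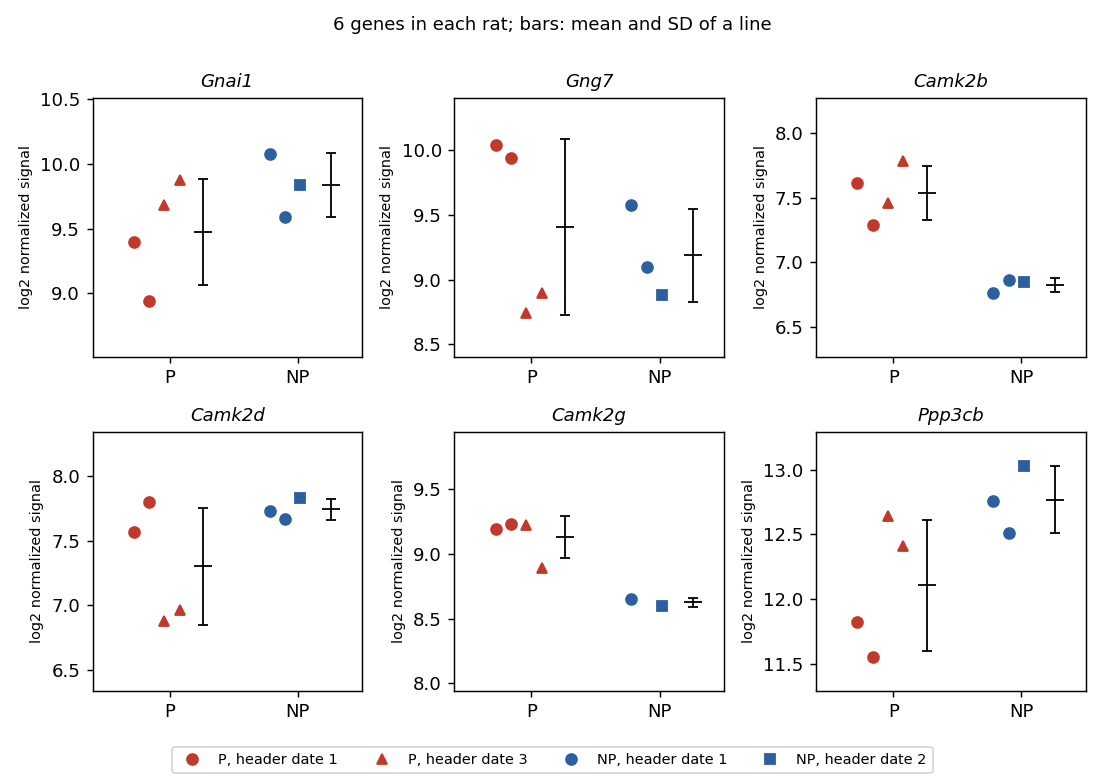
Log2 normalized signal in each rat for the 6 genes given with full values, with the mean and SD of each line as bars; each panel spans 2 log2 units on its own level, and symbols mark the header date. For Camk2b the 4 P rats (7.29 to 7.78) lie above the 3 NP rats (6.76 to 6.86) whatever their date, whereas in Gng7, Camk2d and Ppp3cb the P rats form pairs by date.

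Calcineurin is the calcium and calmodulin-activated phosphatase whose catalytic subunits in brain are mainly Ppp3ca and Ppp3cb. Ppp3cb read 11.82, 11.55, 12.64 and 12.41 in P 1 to P 4 with probe GE20298, and 12.76, 12.51 and 13.03 in NP 2 to NP 4. P 1 and P 2 lay clearly below all NP rats, while P 3 lay between NP 3 and NP 2 and P 4 just below NP 3. Over all arrays the difference was -0.66 ± 0.25 (adjusted p = 0.382). With the block it was -0.95 ± 0.15 (adjusted p = 0.0164) and within date 1 it was -0.95 ± 0.15 (adjusted p = 0.015), and without P 1 and P 2 it was -0.24 (adjusted p = 0.495). A second probe of the transcript, GE21626, differed by -0.20 ± 0.20 over all arrays and by -0.39 with the block (adjusted p = 0.268), and there P 2 alone (6.83) lay apart from the other 6 rats (7.59 to 7.73). Ppp3ca read 11.05 to 11.49 in P and 11.30 to 11.51 in NP, with a difference of -0.05 ± 0.14. The regulatory subunit Ppp3r1, which is not on the list of 43, differed by -0.17 ± 0.12 (adjusted p = 0.593).

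Fyn, a Src-family tyrosine kinase that phosphorylates an NMDA receptor subunit, read 6.89 to 7.84 in P and 6.85 to 7.84 in NP, so that both lines spanned almost the same range (difference 0.06 ± 0.26). Mapk3, the kinase ERK1, differed by 0.15 ± 0.14 on its brighter probe. Its second probe, GE20517, read 10.71, 10.39, 10.24 and 10.58 in P and 10.29, 9.88 and 10.05 in NP, with 0.40 ± 0.15 (adjusted p = 0.377). On that probe 3 of 4 P rats lay above all NP rats.

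Of the transcription factors, Creb1, the founding member of the CREB family, differed by -0.05 ± 0.11, with NP rats between 6.78 and 6.81 and P rats between 6.59 and 6.85. Its dimmer second probe, GE1105222, gave 0.16 ± 0.16. Both Creb1 probes lay near the negative controls, with medians of 6.19 to 6.33 per array before arrays were normalized to each other. The brighter probe was dim, although above background in every rat. Crem, whose internal promoter yields the repressor ICER, read 8.30, 8.19, 8.74 and 8.58 in P 1 to P 4 and 8.54, 8.64 and 8.95 in NP. P 1 and P 2 were the lowest rats, and the difference was -0.26 ± 0.16 over all arrays and -0.35 ± 0.13 with the block (adjusted p = 0.127).

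The spread within the P line was wider than within NP for 26 of the 28 genes by SD, with mean SDs of 0.32 and 0.18, and over all probes with 7 values the P line was the wider for 67.4%. The P line holds 2 header dates in pairs and NP holds 2 dates as well. The mean of P 1 and P 2 differed from that of P 3 and P 4 by more than 0.5 on the log2 scale for 10 of 28 genes, or 35.7%, against 16.1% of all probes, and the median size was 0.32 against 0.22. The 7 genes higher on date 1 by this margin were Gng7 (1.17), Gnai2 (1.09), Camk2d (0.77), Pde4a (0.77), Adcy3 (0.63), Adcy5 (0.56) and Adcy8 (0.54). Ppp3cb (-0.85), Pde7b (-0.64) and Gnai1 (-0.60) were lower. These are descriptions of 2 pairs of rats with no test, and date and rat cannot be told apart within P. The genes are represented by their brightest probes, while all probes include unnamed ones, and the 2 sets were not matched for signal.

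**Figure D4:**
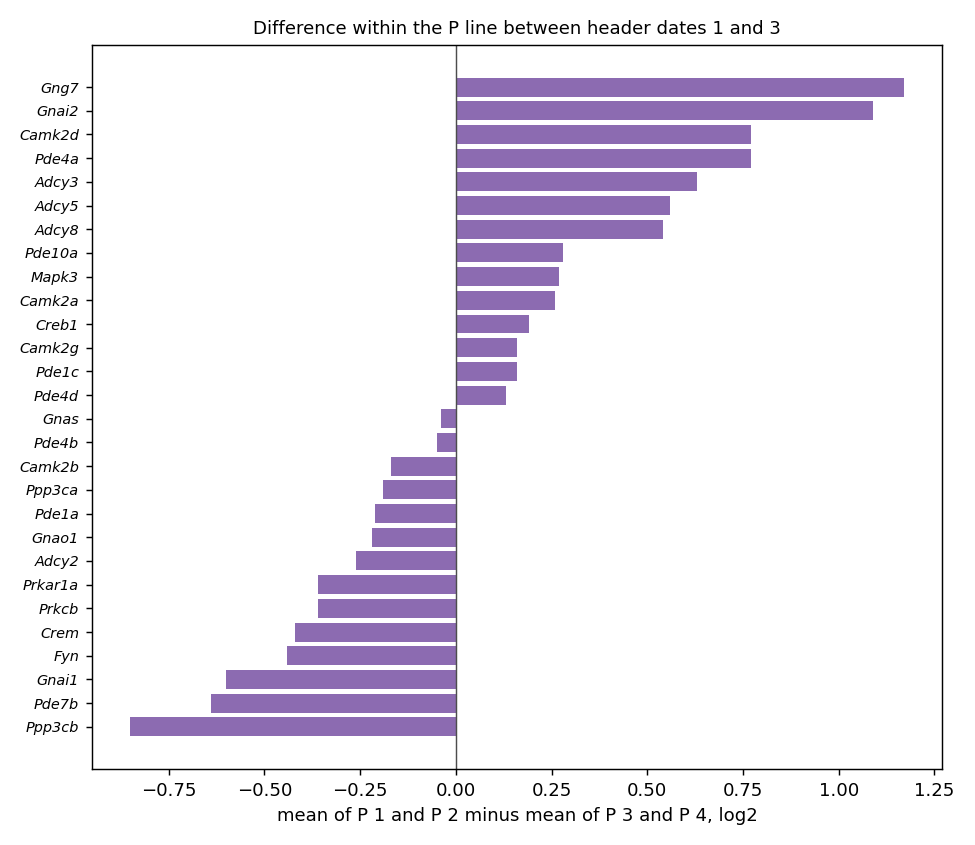
Difference within the P line, as the mean of P 1 and P 2 (header date 1) minus the mean of P 3 and P 4 (header date 3) on the log2 scale, for the 28 genes in order of size; the bar of Pde4b rests on P 2 alone for date 1. The bars run from -0.85 for Ppp3cb to 1.17 for Gng7, and Camk2b lies at -0.17.

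Further genes of the same pathways, 134 in 8 lists, gave 80 tested genes, and none was called over all 7 arrays. With the block 3 of the 80 were called, beside 5.72% of all probes: Gna11, an alpha subunit that acts on phospholipase C (0.74, adjusted p = 0.0165), and Cabin1, a calcineurin inhibitor (0.66, adjusted p = 0.0378), were higher in P, and Gnaz, an inhibitory alpha subunit (-0.56, adjusted p = 0.0393), was lower. They are named after their values were seen. Over all arrays these 3 genes differed by 0.34 ± 0.21, 0.11 ± 0.29 and -0.22 ± 0.25. In each of the 3, P 1 and P 2 lay on 1 side of all NP rats while P 3 and P 4 did not lie beyond them in that direction. The member with the smallest p over all arrays was Gnai3 (-0.32 ± 0.14) for other G protein subunits, Pde3a (0.26 ± 0.13) for other cyclases and phosphodiesterases and Akap7 (-0.24 ± 0.12) for anchors, inhibitors and exchange factors of protein kinase A. For the CREB family it was Atf2 (-0.38 ± 0.11), for calmodulins and their partners Camk1g (0.35 ± 0.12) and for calcium stores and pumps Orai1 (0.52 ± 0.17). It was Dgkb, a diacylglycerol kinase (-0.71 ± 0.17), among protein kinase C and phospholipase genes, and Src (-0.28 ± 0.15) among partners of MAP and Src kinases. Their adjusted p by limma ran from 0.222 for Dgkb to 0.481 for Src. The Pde3a probe was above background in 3 of 4 P rats and in 0 of 3 NP rats, so it passed the filter only through the P line. Dgkb read 9.01 to 9.64 in P and 9.78 to 10.22 in NP, with no overlap, and was called within date 1 (adjusted p = 0.0291) but not with the block (-0.64, adjusted p = 0.0733).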

How the data were processed

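Spot intensities of 7 arrays were used. Per the file headers, the deposited scanner tables hold, per spot, a mean intensity, a local background median, values derived from both and a quality code. The log2 values that the authors deposited as a table tracked log2 of the scanner's scaled values (r of at least 0.9985 per array), and any further centring is unknown. Software and build: not given in the sources used here.

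In limma 3.58.1 (R 4.3.3) background was corrected by normexp with offset 50 and arrays were quantile normalized over transcript probes. Spots coded M, I or C (outliers) were set to missing and counted as not above background. Probes above background on at least 3 of 7 arrays were kept, 29008 in all. Names came from RefSeq transcripts (GRCr8), used for names and promoter windows only, and 561 probes with a RefSeq-type accession found no match.

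The line term was fitted by lmFit and eBayes and adjusted by Benjamini-Hochberg over all probes, also with the header date as a block and within date 1. Replicates are separate rats, 4 P and 3 NP. Full values are given for genes called in any of the 3 fits and for the 5 with the smallest p over all arrays, the others by difference and range, and values per rat given beyond that rule were added after seeing them. The genes, lists and tests were chosen with earlier results of these data known. Of the marker genes, 1 is not reported here and was left out of its list. The fit was tested on simulated data. Promoters were searched by letters on both strands. Figures used matplotlib 3.10.9. Alternatives cover background, scaling, filter, variance model, weights, blocks, the authors' values and each array left out.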

Additional observations from a re-analysis of the deposited data

Results flagged for a closer look

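The value of Camk2g in P 4 (8.89) stood apart from P 1, P 2 and P 3 (9.19 to 9.23), with a gap that is large for the range of 4 rats. It was 1 of 27 sets of P values looked at for a lone distant rat, where about 1.4 would be marked by chance. The NP line, with 3 rats, was not looked at in this way.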

How the results depend on the processing

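The count of signalling genes called over all 7 arrays was 0 with other background corrections, scalings, filters, variance priors, the plain test and the authors' values. It was 1 with array weights and with the header date as a random block (Camk2b in both), 3 with it as a fixed block, 2 on date 1 alone, and 0 to 1 with each array left out. The random block was fitted only to probes with a value on every array, which held 26 of the genes. The filter for probes above background on all 7 arrays held 24 of the genes. Over all probes the 84 calls became 49 with probes above background on all 7 arrays, 51 in the authors' values, 35 in the plain test per probe, 154 with array weights, 163 with the random and 1655 with the fixed block, 1847 on date 1 alone, and 51 (without NP 4) to 121 (without P 3) with an array left out. Added after seeing the data, fits without P 1 and P 2 called 2 of the genes (Camk2b and Camk2d) and 189 probes. Without P 3 and P 4 they called 6 of the genes and 3310 probes. These 6 were Camk2b (0.63), Camk2g (0.58), Gnai1 (-0.67), Gng7 (0.81), Ppp3cb (-1.08) and Pde4a. In the fit without P 1 and P 2, where line and header date cannot be told apart, Gng7 turned to -0.36. The 3 calls with the fixed block became 1 (Ppp3cb) with no local background subtraction, with median scaling, with cyclic loess and with no filter. They became 0 with plain subtraction, in the authors' values and in the plain test, and 0 to 1 with an array of date 1 left out. Over all probes these fits called 1518, 618, 954 and 1369, then 68, 47 and 0, and 72 to 908, where the block as reported called 1655. On date 1 alone the 2 calls became 1 with no local background subtraction and with median scaling (1531 and 877 probes), 0 with plain subtraction, in the authors' values and in the plain test (27, 36 and 1 probes, where 1847 were called as reported), and 0 to 3 with an array left out (249 to 2289 probes). The causes were not tested. With the replicate number as a block, 102 probes and none of the genes were called, and Camk2b differed by 0.68 (adjusted p = 0.161). Same-numbered rats correlated at 0.10, 0.06 and 0.02 in their deviations from the line means, and rats of unlike number at -0.32 to 0.36. With so few rats this does not settle whether the numbers pair the rats. Across alternatives Camk2b ranged from 0.53 to 1.10, Camk2g from 0.43 to 0.59 and Ppp3cb from -1.08 to -0.24. Gng7 ranged from -0.36 to 0.81, Camk2d from -0.83 to -0.02 and Gnai1 from -0.67 to -0.06.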
